A study of Mus musculus with 16 samples.

Results

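The genes described here are 8 transcripts that cyclic AMP induces through the transcription factor CREB in many cells: the nuclear receptors Nr4a1, Nr4a2 and Nr4a3, the repressor Crem, the kinase Sik1, the growth factor Areg, the AP-1 subunit Fosl2 and the small GTPase Gem. They were found by gene name among the non-control spots of the arrays, which gave 14 of 55681 probes and 8 of 34650 gene names. Total RNA of bone marrow from 16 mice was measured, 1 mouse per 1-colour array. The 8 KO chimeras were C57BL/6J mice that had received 950 rad of irradiation, an injection of whole marrow from donors with a targeted loss of 2 adrenergic receptor genes, Adrb1 among them, and 2 to 3 months of recovery. The donor to C57BL/6J ratio is given as 1 to 4, without saying whether it counts donor mice or mixed cells, so the part of the graft that lacked the receptors is not known here. The 8 controls were C57BL/6J mice whose labels carry the same protocol with 950 rad and 2 to 3 months of recovery but name no donor. Stromal and vascular cells of a chimera are those of the host. Loss of the receptors, the strain of the donors and the graft itself cannot be told apart.

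Beta adrenergic receptors answer noradrenaline, released by sympathetic nerves, through the G protein Gs, adenylyl cyclase, cyclic AMP and protein kinase A. The kinase phosphorylates CREB, which sits on a short DNA element, the CRE, and then recruits the acetyltransferases CBP and p300; protein kinase A also frees the CRTC coactivators from salt-inducible kinases. Many of the genes switched on in this way are short-lived immediate early genes that growth factors, calcium, stress and tissue handling induce too, and several of them, such as Crem and Sik1, damp the pathway that induced them. In bone marrow, sympathetic nerves run along vessels, and the release of haematopoietic cells from the marrow follows noradrenaline.

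The promoters are shown because CREB acts on its target genes through the CRE. RefSeq promoters (GRCm38.p6, 250 bases before to 50 after the start site) were found for 5 of the 8 genes: Nr4a1, Nr4a2, Nr4a3, Areg and Fosl2. They were searched on both strands for the full CRE, TGACGTCA, and for the short CRE, TGACG or its reverse CGTCA, which also counts each end of a full CRE. The stretches below run 5′ to 3′ on the gene's strand, and capitals mark the CRE matches. They cover chr15:101266603-101266823 (plus strand) for Nr4a1, chr2:57124097-57124213 (minus strand) for Nr4a2, chr4:48045064-48045175 (plus strand) for Nr4a3 and chr5:91139474-91139558 (plus strand) for Areg.
Nr4a1: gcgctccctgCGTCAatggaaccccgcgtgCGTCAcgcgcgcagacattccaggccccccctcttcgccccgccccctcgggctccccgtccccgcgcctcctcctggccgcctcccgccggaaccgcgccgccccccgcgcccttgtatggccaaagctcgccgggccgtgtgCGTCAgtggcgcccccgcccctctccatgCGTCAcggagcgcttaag
Nr4a2: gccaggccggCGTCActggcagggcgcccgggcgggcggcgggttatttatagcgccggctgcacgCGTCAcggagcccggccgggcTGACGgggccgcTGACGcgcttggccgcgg
Nr4a3: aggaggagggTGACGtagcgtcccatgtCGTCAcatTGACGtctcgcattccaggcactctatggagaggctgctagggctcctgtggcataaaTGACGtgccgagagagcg
Areg: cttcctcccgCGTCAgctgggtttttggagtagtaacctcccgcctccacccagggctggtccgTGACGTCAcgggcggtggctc

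Each Nr4a promoter held 4 short CREs. Counted by the first base from the start site, those of Nr4a1 lay at -233, -213, -69 and -40, those of Nr4a2 at -200, -144, -123 and -111, and those of Nr4a3 at -231, -213, -205 and -147. Of 32851 RefSeq promoters of the same length, 20.8% held a short CRE and 0.231% held 4 or more. Those promoters were not matched for base content, and G and C made up 72.3%, 81.7% and 64.7% of the Nr4a1, Nr4a2 and Nr4a3 windows. The genes were also chosen as CREB targets. The Areg promoter held 3 short CREs, of which the pair at -61 and -58 overlap as a full CRE, and a TATA box (TATAAA) at -31; 1.79% of all promoters held a full CRE and 13.6% a TATA box on either strand. The Nr4a2 window also held the TATA box letters on the other strand (TTTATA) at -164, and the Fosl2 window held no match to any of these motifs. These matches describe the letters only and the arrays measured no binding.

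**Figure D1:**
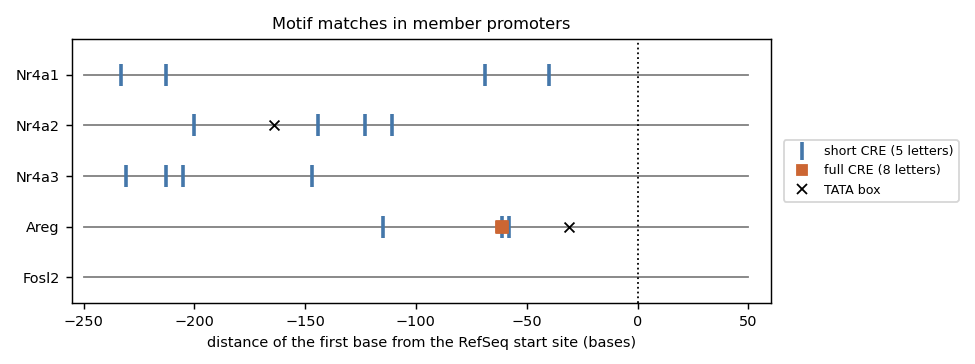
Motif matches in the 5 RefSeq promoters, one line per gene, against the distance of the first matched base from the start site in bases; blue bars are short CREs, the orange square is the full CRE and crosses are TATA boxes on either strand. The short CREs of Nr4a2 and Nr4a3 lie between -231 and -111, Nr4a1 has 2 at -233 and -213 and 2 at -69 and -40, and Fosl2 has none.

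A level is the log2 processed signal of a probe minus the log2 of the 75th percentile of the processed signal on that array, and a difference is KO chimera minus control on that scale. The 75th percentile itself, a measure of array brightness, ran from 231 to 558 in controls and from 127 to 545 in KO chimeras (log2 difference -0.40; p = 0.232 by a two-sided exact permutation of the 16 mice). Control 8 was the brightest array and had 966 outlier spots against 123 to 414 on the others. It was the lowest control for 7 of the 11 gene probes tested below. There were 6 slides, 5 of them with mice of both groups, and 2 scan days, each with 4 controls and 4 KO chimeras. Control 8 was scanned on day 2. Adrb1 did not pass on its brighter probe (controls -2.58, -2.51 and -2.34 as lowest, median and highest, KO chimeras -2.99, -2.41 and -2.19; difference -0.00041 ± 0.11, adjusted p = 0.999), and its dimmer probe was higher by 0.95 ± 0.30 (adjusted p = 0.0277). As the deleted part of Adrb1 is not known here, these probes are no check of the labels.

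Transcripts of 3 of these genes, Nr4a1, Gem and, on 1 of its 2 probes, Nr4a2, were higher in the marrow of KO chimeras by 1.50-fold to 1.99-fold, and none was lower. Of the 14 probes, 11 probes of 7 genes were well above background on enough arrays to be tested; 3 probes, the only one of Nr4a3 and 2 of Crem, were not. The test was limma across 32689 probes with Benjamini-Hochberg adjustment and a call at an adjusted p under 0.05. It called 4 of the 11 probes higher and 0 lower (36.4% called), beside 23.5% of all probes called, 11.4% higher and 12.2% lower. Counted on the brightest tested probe of each gene, 2 of the 7 genes, Nr4a1 and Gem, were called higher. Over all gene names counted in that way 22.3% were called, 10.3% higher and 12.1% lower. With array weights 7 of the 11 were called higher, where 13% of all probes were, and with array brightness as a covariate 3 were, where 9.75% of all were. With normexp background correction, which adds an offset of 50 to every signal, the same 4 were called, where 11% of all probes were called higher, but the dimmer Nr4a2 and Gem probes differed by 0.36 and 0.35 in place of 0.58 and 0.67. All 11 differences were above 0, which held for 48.3% of all probes, and their median was 0.28 against -0.01 over all probes. The groups overlapped in every one of the 11, whereas 2072 probes (6.34% of those tested) had no overlap. The 11 probes come from 7 genes of the same mice and are not independent of each other. In whole marrow, more cells of a type and more RNA per cell cannot be told apart.

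**Figure D2:**
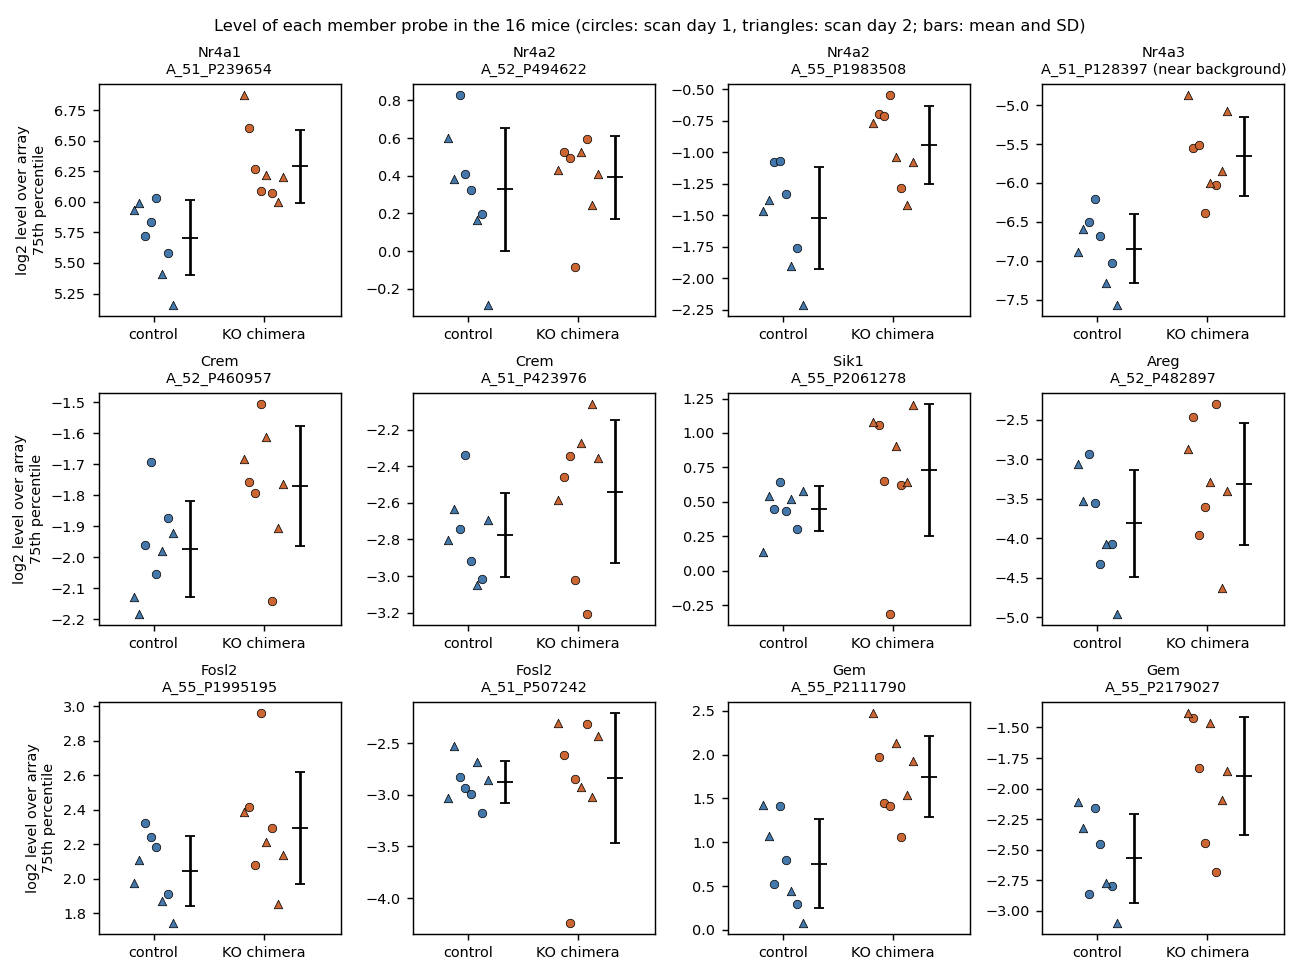
Level of 12 probes (the 11 tested and the Nr4a3 probe) in each mouse, as log2 over the array's 75th percentile; circles are arrays of scan day 1, triangles scan day 2, and bars the mean and SD of the 8 mice of a group. Each panel has its own axis, since levels of different probes are not comparable; 7 of 8 KO chimeras lie above all controls for Nr4a1 and 6 of 8 for both Gem probes, while the Nr4a2 probe on the left and the dimmer Fosl2 probe show no separation.

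The NR4A proteins are orphan nuclear receptors that act as transcription factors without a known hormone; NR4A1 governs the survival of patrolling monocytes and responds to antigen receptor signals in lymphocytes. The Nr4a1 probe (A_51_P239654, chr15:101105071-101105130, mm9, plus strand) had a lowest, median and highest level of 5.15, 5.78 and 6.03 in controls and of 6.00, 6.21 and 6.87 in KO chimeras. Only the lowest KO chimera, mouse 7, fell within the range of the controls, just under their highest. The group means were 5.71 ± 0.31 and 6.29 ± 0.30 (SD, n = 8 each), and the difference was 0.58 ± 0.15 (SE), 1.50-fold, with an adjusted p of 0.0079. All 8 KO chimeras were above the control median.

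NR4A2 is best known from dopaminergic neurons and is also induced in macrophages and mast cells. It has 2 probes, 1062 bases apart on the minus strand of chromosome 2. On the brighter (A_52_P494622, chr2:56960699-56960758) controls ran from -0.29 through a median of 0.35 to 0.83, and KO chimeras from -0.08 through 0.46 to 0.59. All KO chimeras lay within the control range, and the difference was 0.06 ± 0.14 (adjusted p = 0.786, 95% interval -0.22 to 0.35). On the dimmer (A_55_P1983508, chr2:56959637-56959696) controls ran from -2.21 through -1.42 to -1.07 and KO chimeras from -1.42 through -0.90 to -0.54. There 5 KO chimeras exceeded the highest control, all 8 exceeded the control median, and the difference was 0.58 ± 0.17, 1.50-fold (adjusted p = 0.0204). With normexp the probes differed by 0.10 and 0.36. The interval of the brighter probe lies below the difference of the dimmer in the fit without normexp.

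NR4A3 is the third receptor of the family. Its only probe (A_51_P128397, chr4:48080690-48083876, plus strand) is 60 bases long but spans 3187 bases of the genome, so it reads across at least 1 intron, and it is spotted 10 times on each array. It was well above background on 0 control arrays and 1 KO chimera array, and was not tested. Its levels ran from -7.57 through -6.78 to -6.21 in controls and from -6.38 through -5.70 to -4.87 in KO chimeras. The 7 KO chimeras above every control stood close to the background, so no fold or test is given.

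GEM is a small GTPase of the RGK family that restrains voltage-gated calcium channels and is induced in activated lymphocytes. Its brighter probe (A_55_P2111790, chr4:11641692-11641751, plus strand) had levels of 0.08, 0.66 and 1.42 in controls and of 1.06, 1.74 and 2.48 in KO chimeras (lowest, median and highest). With 6 KO chimeras above every control and all 8 above the control median, the difference was 0.99 ± 0.23, 1.99-fold (adjusted p = 0.00405), the greatest of the 11 probes. The dimmer probe (A_55_P2179027, chr4:11642081-11642140) had levels of -3.10, -2.61 and -2.11 in controls and of -2.68, -1.84 and -1.38 in KO chimeras. It again had 6 KO chimeras above every control and differed by 0.67 ± 0.20, 1.60-fold (adjusted p = 0.0217). That call was lost with slide as a block (0.62, adjusted p = 0.0934) and with array brightness as a covariate (0.60, adjusted p = 0.0529), and with normexp the difference was 0.35 (adjusted p = 0.0201).

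AREG, amphiregulin, is a ligand of the epidermal growth factor receptor made by basophils, mast cells and some lymphocytes and is the one secreted protein among these genes. Its probe (A_52_P482897, chr5:91570090-91570149, plus strand) is a dim one, detected well above background on all 8 control arrays and 7 of the KO chimeras'. Levels ran from -4.96 through -3.81 to -2.93 in controls and from -4.63 through -3.35 to -2.30 in KO chimeras. The groups overlapped for 5 of the 8 KO chimeras, and the difference of 0.50 ± 0.33 did not pass (adjusted p = 0.316, 95% interval -0.21 to 1.20; 0.20 with normexp). Both no difference and one as great as that of Gem lie in this interval.

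SIK1 and CREM are the brakes among these genes: salt-inducible kinase 1 keeps the CRTC coactivators out of the nucleus, and the short ICER form of CREM occupies the CRE without activating it. The Sik1 probe (A_55_P2061278, chr17:31981255-31981314, minus strand) ran from 0.14 through 0.48 to 0.65 in controls and from -0.32 through 0.78 to 1.20 in KO chimeras. Of the KO chimeras 6 exceeded every control and 1, mouse 4, lay below every control. The difference was 0.28 ± 0.17 (adjusted p = 0.264); without KO chimera 4 it was 0.43 (adjusted p = 0.00855). Whether Sik1 passed thus rested on that mouse.

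Crem has 4 probes on the minus strand of chromosome 18, of which 2 were tested. The brighter (A_52_P460957) had levels of -2.18, -1.97 and -1.69 in controls and -2.14, -1.76 and -1.51 in KO chimeras, overlapping for 5 of the 8 KO chimeras, and differed by 0.20 ± 0.09 (adjusted p = 0.135). Without KO chimera 6, the lowest, it differed by 0.26 (adjusted p = 0.0426). The other (A_51_P423976) had levels of -3.05, -2.77 and -2.34 in controls and -3.21, -2.41 and -2.06 in KO chimeras and differed by 0.24 ± 0.15 (adjusted p = 0.302). With normexp these probes differed by 0.09 and 0.06. The remaining 2, A_55_P2044257 and A_55_P2177904, each passed background on 1 control array, and on 2 and 1 arrays of KO chimeras, and were not tested. Which forms of Crem the probes detect was not resolved here.

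FOSL2 (Fra-2) joins JUN proteins in the AP-1 transcription factor. Its brighter probe (A_55_P1995195, chr5:32460076-32460135, plus strand) ran from 1.74 through 2.04 to 2.32 in controls and from 1.85 through 2.26 to 2.96 in KO chimeras. The groups overlapped for 5 KO chimeras, and the difference was 0.25 ± 0.13 (adjusted p = 0.199); it was 0.15 without KO chimera 4, the highest, and 0.14 with array brightness as a covariate. The dimmer probe (A_51_P507242, chr5:32455088-32455147) ran from -3.18 through -2.89 to -2.53 in controls and from -4.24 through -2.73 to -2.31 in KO chimeras, with a difference of 0.04 ± 0.22 (adjusted p = 0.925). KO chimera 3 alone made the low end of that range, the next lying at -3.02, and without it the difference was 0.24 (adjusted p = 0.214).

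Because probes of 1 gene did not always move alike, the level of the dimmer minus the brighter probe was compared between groups for the 4 genes with 2 tested probes, a comparison chosen after the values were seen. For Nr4a2 this value was 0.52 higher in KO chimeras, with means of -1.85 in controls and -1.33 in KO chimeras (exact two-sided permutation p = 0.00482, 0.0149 after Benjamini-Hochberg adjustment over the 4 genes, n = 8 per group). For Gem it was 0.32 lower (difference -0.32, exact p = 0.00746, adjusted 0.0149), so that the dimmer probe differed by less than the brighter. For Crem the difference was 0.03 (exact p = 0.849) and for Fosl2 -0.21 (exact p = 0.427, adjusted 0.569). Thus the 2 Nr4a2 probes disagreed on whether the gene was higher, while both Gem probes were higher by unequal amounts.

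Within each scan day, with 4 mice per group, the 4 called probes kept their direction. Nr4a1 differed by 0.47 on day 1 (adjusted p = 0.132) and by 0.70 on day 2 (adjusted p = 0.109). The dimmer Nr4a2 probe differed by 0.50 (adjusted p = 0.205) and 0.67 (adjusted p = 0.0856). The brighter Gem probe differed by 0.71 (adjusted p = 0.153) and 1.27 (adjusted p = 0.0345), and the dimmer one by 0.47 (adjusted p = 0.376) and 0.88 (adjusted p = 0.0559). So 0 of the 11 probes passed on day 1 and 1 on day 2, where 3.43% and 5.62% of all probes were called higher. All 4 differed by more on day 2, and that change between days was not tested. Control 8, the lowest control for each of the 4, was among the day 2 mice. The 5 slides that held both groups had only 1 or 2 mice of a group each. On these, each of the 4 was higher in KO chimeras on every slide, by 0.21 to 1.39 for Nr4a1, 0.26 to 1.31 for the dimmer Nr4a2 probe, and 0.01 to 2.23 and 0.02 to 1.68 for the brighter and dimmer Gem probes. The high end of each of these 4 ranges came from the slide whose only control was control 8. Of the other tested probes, the brighter Crem probe was also higher on all 5 slides (0.02 to 0.42) and the brighter Fosl2 probe differed by 0.27 on day 1 and 0.22 on day 2, while Sik1 differed by 0.05 on day 1 and 0.51 on day 2, and Areg by -1.06 to 1.88 from slide to slide.

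**Figure D3:**
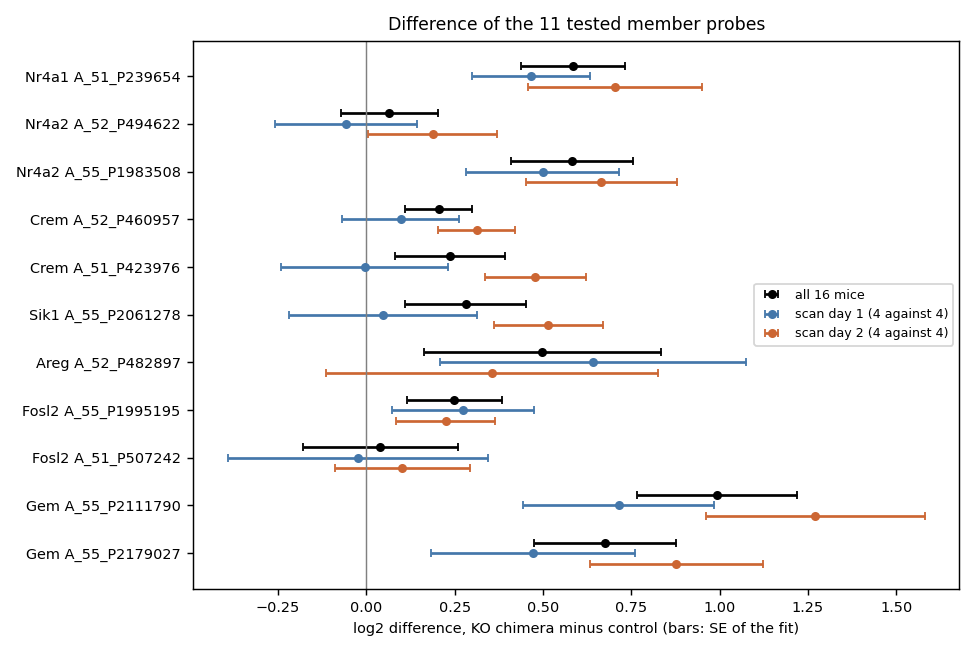
Difference of the 11 tested probes (log2, KO chimera minus control, horizontal axis) over all 16 mice in black, within scan day 1 in blue and within scan day 2 in orange; bars are the SE of each limma fit. All black points lie to the right of 0, from 0.04 to 0.99, and on day 1 the brighter Nr4a2, the dimmer Crem and the dimmer Fosl2 probes lie at or left of it.

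Whether these genes vary together from mouse to mouse was read from each mouse's deviation from its group mean, on the brightest tested probe of the 7 genes. Of the 21 pairs, 16 had a positive correlation, and 2 passed after adjustment over the 21. Nr4a1 and Gem correlated at r = 0.78 (permutation adjusted p = 0.0144) and Spearman's rank correlation = 0.75 (permutation adjusted p = 0.0204), n = 16 mice. Without control 8 and KO chimera 1, the mice farthest from the median of Nr4a1, r was 0.63, and within scan days 1 and 2 it was 0.72 and 0.92 (exact permutation p = 0.0677 and 0.0122, 8 mice each). Nr4a2 and Areg correlated at r = 0.73 (permutation adjusted p = 0.0144) and Spearman's rank correlation = 0.79 (permutation adjusted p = 0.0111). Without control 8 and KO chimera 4 r was again 0.73, and within the days it was 0.67 and 0.87 (exact permutation p = 0.0868 and 0.00521). Within day 1, 0 of 21 pairs passed after adjustment, and within day 2, 7 did. The day 2 mice include control 8, and its part in the day 2 correlations was not tested.

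**Figure D4:**
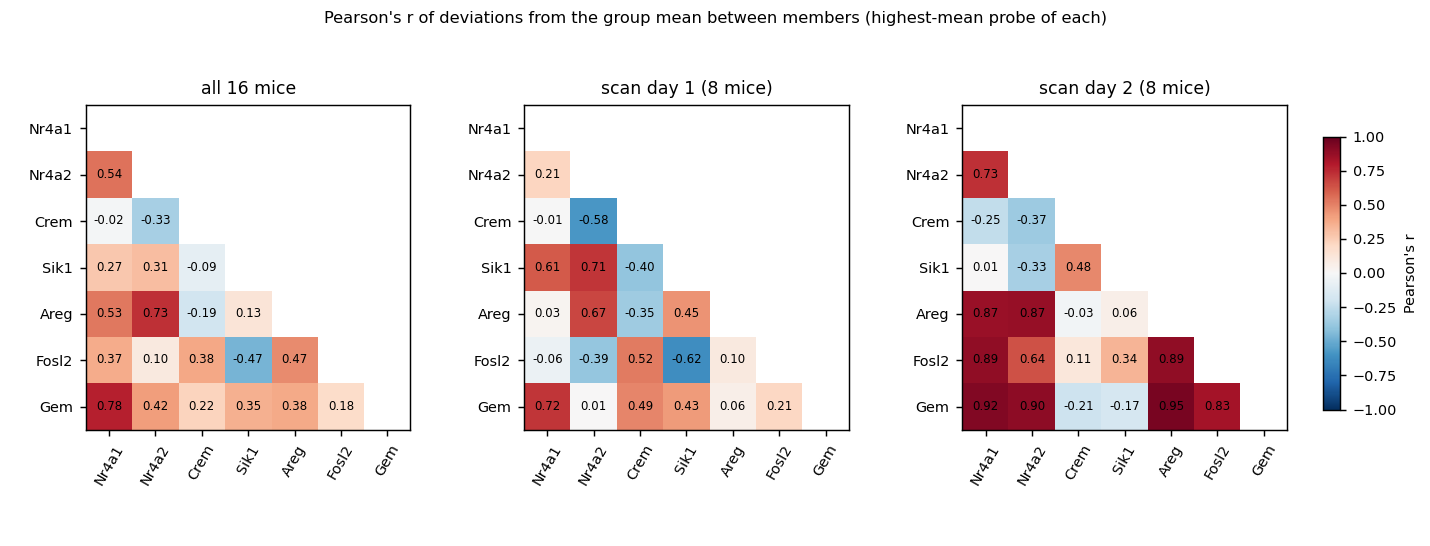
Pearson's r between 7 genes over the mice's deviations from their group means (brightest tested probe of each), for all 16 mice on the left and for the 8 mice of scan day 1 and of scan day 2; red is positive and blue negative, on a scale from -1 to 1. On day 2, whose mice include control 8, Nr4a1, Nr4a2, Areg, Fosl2 and Gem correlate positively in every pair, up to 0.95, and on day 1 they do not.

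Array brightness moved with some of them. Over the 16 mice its correlation with the deviation was -0.65 for Fosl2 (permutation adjusted p = 0.0765 over 7 genes; Spearman's rank correlation = -0.70, permutation adjusted p = 0.026) and -0.51 for Nr4a1 (permutation adjusted p = 0.182; Spearman's rank correlation = -0.54, permutation adjusted p = 0.11). Without KO chimeras 2 and 7, the arrays farthest from the median brightness, r was -0.62 and -0.38. Within scan day 2 it was -0.84 for Fosl2 and -0.82 for Nr4a1 (exact permutation p = 0.0226 and 0.00174, the latter the smallest that 8 mice in 2 groups allow), against -0.25 and -0.63 within day 1 (exact permutation p = 0.668 and 0.194). Gem, at r = -0.18 over all mice, had -0.76 and -0.62 within the days (exact permutation p = 0.0174 and 0.033). The part of brightness in the correlations between genes was not tested, and the dimmer Nr4a2 probe was not correlated with it. With brightness as a covariate Nr4a1, the dimmer Nr4a2 probe and the brighter Gem probe kept their calls. Their differences were then 0.49, 0.41 and 0.94, against 0.58, 0.58 and 0.99 without it. The dimmer Gem probe lost its call.

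The genes whose deviations were most like those of each gene, among 22291 with values on all arrays, are given as a description. Nr4a1 was most like Fos, the immediate early AP-1 gene (r = 0.93 over 16 mice), and then Fbxl12os (r = 0.92). Gem was most like Gbp4 and Cd83 (both r = 0.90), Crem like Nprl2 (r = 0.91) and Ccdc117 (r = 0.89), Sik1 like Rnf122 (r = 0.91) and Fosl2 like Rap1b and Rab9 (both r = 0.94). The nearest probe to Nr4a2 had no gene symbol and the next was Gm15466 (r = 0.90). Both probes nearest to Areg and the second nearest to Sik1 (r = 0.90) had no gene symbol. Of the genes named here, Fos was higher in KO chimeras (0.39 ± 0.10, adjusted p = 0.00681), whereas Ccdc117 (-0.71 ± 0.13, adjusted p = 0.000881) and Gbp4 (-0.44 ± 0.14, adjusted p = 0.0255) were lower.

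Of 40 further known CREB target genes, 35 were measured on their brightest tested probe, and 14 were higher, 3 lower and 18 did not pass, with a median difference of 0.30. Over all 23061 gene names 22.3% were called, 10.3% higher and 12.1% lower, with a median of -0.02. The list was chosen with earlier results of these data known and holds immediate early genes that other signals induce too. Its counts are therefore no independent test of the pathway. The 4 with the smallest p were Ier2, an immediate early gene, at 1.22 ± 0.11 (adjusted p = 5.95e-07), Atf3, a stress-induced repressor, at 1.44 ± 0.17 (adjusted p = 7.67e-06), Dusp1, a phosphatase of MAP kinases, at 0.81 ± 0.11 (adjusted p = 4.48e-05), and the clock gene Per1 at -0.98 ± 0.14 (adjusted p = 6.6e-05). The first 3 were higher in all 8 KO chimeras than in every control, and Per1 was lower in all 8. The groups also did not overlap for Bhlhe40, Maff, Dusp10, Sgk1, Fos and Pde10a, and overlapped for the other measured targets. Of all tested probes, 6.34% had no overlap. A dimmer Per1 probe differed by 0.40 and was not called. Bhlhe40, Maff, Dusp10, Sgk1, Klf4, Rgs2, Egr2, Fos, Il6, Junb and Cebpd were also higher, by 0.30 (Cebpd) to 1.53 (Maff), and G6pc, of glucose release, was lower (-0.65 ± 0.17). The phosphodiesterase Pde10a was called lower too, but its probe was well above background on only 4 KO chimera arrays, so its size is approximate, and another probe differed by -0.13 and was not called. Of genes not counted as called, Pde4b had 2 other probes and Pde4d 1 other probe called higher. Egr1 (0.38 ± 0.15, adjusted p = 0.0799), Ptgs2 (0.45 ± 0.18, adjusted p = 0.0854) and Fosb (0.24 ± 0.11, adjusted p = 0.121) did not pass. Within scan day 1 there were 7 higher and 1 lower, and within day 2 there were 9 higher and 2 lower. Of all probes, 3.43% were called higher and 4.07% lower on day 1, and 5.62% and 4.97% on day 2. Of the 30 of these 40 genes with a RefSeq promoter, 23 held a short CRE and 5 (Btg2, Dio2, Dusp1, Maff and Sst) a full CRE. Of all promoters, not matched for base content, 20.8% and 1.79% did, and these genes were chosen as CREB targets. Pck1, Sst and Vip, among the 23, were not measured. Of those without a short CRE, Dusp10, G6pc and Pde10a were called on the brightest tested probe, and Gadd45b, Inhba, Irs2 and Pde4d were not.

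**Figure D5:**
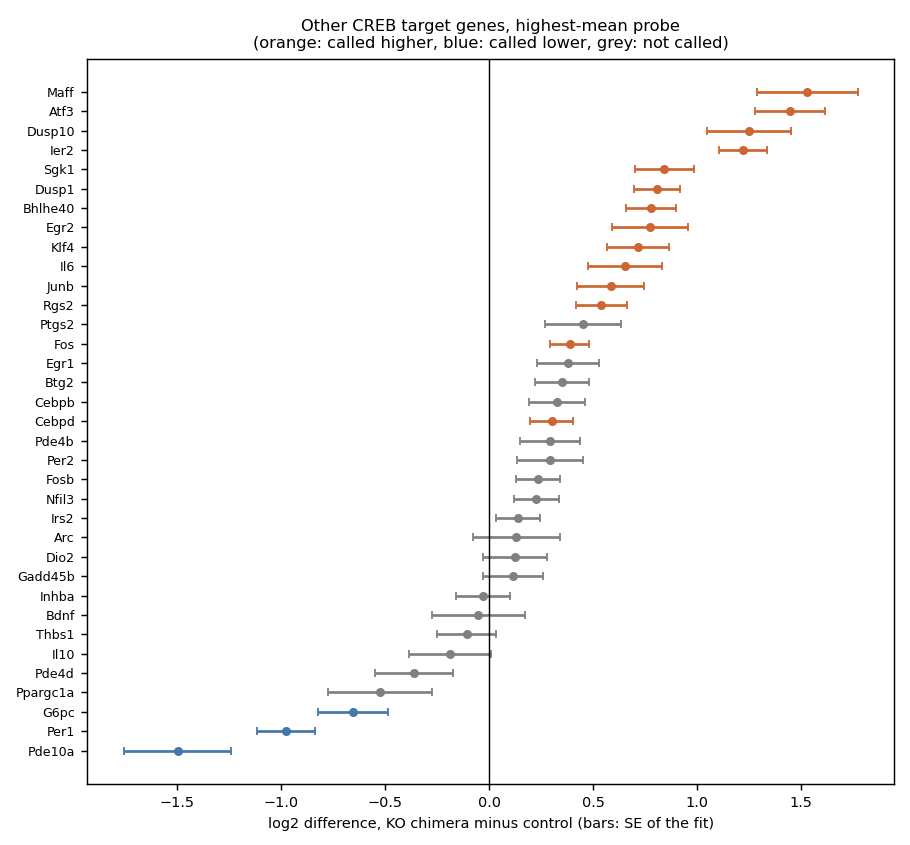
Difference of the 35 measured further CREB target genes (log2, KO chimera minus control, brightest tested probe, bars are the SE of the limma fit), ordered by size. Orange marks the 14 called higher, blue the 3 called lower, and grey the 18 not called.

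Upstream of these targets, of 21 genes for CREB, its coactivators, protein kinase A subunits and regulators, 20 were measured on their brightest tested probe: 0 were higher and 4 lower, with a median difference of -0.05, beside 22.3% of all gene names called. Dimmer probes of Atf1 (0.35), Prkar1a (1.14), Pkig (0.51) and Sik2 (0.96) were called higher and of Crtc3 (-0.70) and Akap13 (-0.57) lower, so the count depends on the probe. The 4 were the coactivator Crtc1 (-0.40 ± 0.08, adjusted p = 0.00126), the acetyltransferase p300 gene Ep300 (-0.57 ± 0.13, adjusted p = 0.00314), the kinase Sik3 (-0.29 ± 0.07, adjusted p = 0.00945) and the catalytic subunit Prkacb (-0.25 ± 0.08, adjusted p = 0.0325), of which Prkacb has another probe that differed by 0.22. Creb1 itself differed by 0.06 ± 0.10 and the catalytic subunit Prkaca by -0.03 ± 0.12 (adjusted p = 0.698 and 0.9).

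Among relatives of the 8 genes in their own families, 17 of 20 were measured, and 2 were higher and 1, Sik3, lower on the brightest tested probe, beside 22.3% of all gene names called. Dimmer probes of Atf1 and Sik2, given above, were called higher. Fosl1 (Fra-1), the closest relative of Fosl2, was higher by 1.31 ± 0.17 and in all 8 KO chimeras than in every control (adjusted p = 2.54e-05). Rem1, an RGK GTPase like Gem, was higher by 3.65 ± 0.16 and also without overlap (adjusted p = 3.12e-11). Of all tested probes, 6.34% had no overlap. The control level of Rem1 is near background, above it on 6 arrays. The other RGK genes, Rrad (0.22 ± 0.12, adjusted p = 0.21) and Rem2 (-0.14 ± 0.15, adjusted p = 0.567), and the receptor ligands Hbegf (0.03 ± 0.23) and Epgn (-0.80 ± 0.29, adjusted p = 0.0573) did not pass.

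Marker genes of several marrow cell types moved between the same groups. The calls given for each list stand beside 22.3% of all gene names called, 10.3% higher and 12.1% lower. The mean log2 level of 7 monocyte markers was higher by 0.59 (controls 3.66 to 4.19, KO chimeras 4.02 to 4.98; exact two-sided permutation p adjusted over 12 lists = 0.00124, n = 8 per group), with 3 of the 7 called: Cd14 (2.26 ± 0.13), Klf4 (0.71 ± 0.15), which is also in the CREB target list, and Ccr2. Fn1 (0.36), Csf1r (0.22), F13a1 (0.13) and Cx3cr1 (-0.21) were not called. Another probe of Csf1r and of Cx3cr1 was called higher. The median of the 7 differences was 0.36, below the 0.59 of the mean level. It was lower by 0.91 for 7 macrophage markers (controls -0.27 to 0.57, KO chimeras -1.36 to -0.10; 5 called lower, with Cd5l at -1.50 ± 0.21; exact adjusted p = 0.00149) and lower by 1.23 for 7 megakaryocyte markers (0.94 to 1.67 and -0.31 to 0.87; 5 called lower, with Clec1b at -2.87 ± 0.22; exact adjusted p = 0.000932). For 8 basophil and mast cell markers it was lower by 0.35 (1.37 to 2.09 and 1.23 to 1.60; 5 called lower, with Hdc at -1.29 ± 0.12; exact adjusted p = 0.00528), and for 8 T cell markers lower by 0.37 (1.07 to 1.46 and 0.28 to 1.14; 3 called lower and 1, Cd3d at 2.18 ± 0.12, higher; exact adjusted p = 0.0014). For 8 endothelial and stromal markers it was higher by 0.70 (-0.21 to 0.42 and 0.58 to 1.03; 2 called higher and 1 lower; exact adjusted p = 0.000932), with Stab2 alone at 4.99 ± 0.22 and a median of 0.18 over the 8. Neutrophil (0.08, 0 of 9 called, exact adjusted p = 0.366), erythroid (-0.10, 0 of 6, exact adjusted p = 0.752), B cell (0.13, 1 of 7, exact adjusted p = 0.625), NK cell (0.15, 1 of 5, exact adjusted p = 0.366), eosinophil (-0.49, 1 of 4, exact adjusted p = 0.342) and skeletal muscle lists (0.22, 0 of 2, exact adjusted p = 0.105) did not pass. Of the 3 basophil and mast cell markers not called, Mcpt4 (0.59) and Ms4a2 (0.14) were above 0 and Mcpt8 (-0.23) below. Neutrophil and erythroid markers were present on all arrays (7.03 to 7.32 and 3.83 to 5.38 in controls, 6.91 to 7.40 and 3.66 to 5.66 in KO chimeras). The part of these cell types in the differences of Nr4a1, Nr4a2 and Gem was not tested.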

How the data were processed

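Bone marrow RNA of 16 mice was measured on 1-colour Agilent mouse arrays, 1 mouse per array. The scanner files deposited by the authors hold linear spot intensity from which the scanner software, Agilent Feature Extraction, had subtracted background, version 10.1.1.1 per the file headers and 10.7 per the submitters' processing notes; probe positions are in build mm9 per the file headers, and no exon annotation of that build was used. The authors' value table, used as an alternative, holds log2 values with a floor of 2.3 and column medians of 4.98 to 5.00; it matched the scanner signals spot by spot (r of 0.991 or more), which settles its scale and direction; how it was centred stays unknown.

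Outlier spots were left out, spots of a probe averaged after log2, and the 75th percentile of each array subtracted; no spot was saturated. Probes well above background on at least 6 of 8 arrays of either group, with at least 3 values per group, were kept (32689 of 55681). The comparison used limma 3.58.1 with R 4.3.3 (lmFit, then eBayes), two-sided, with p-values adjusted by Benjamini-Hochberg over all kept probes and a call under 0.05. Lists were read from each gene's kept probe with the highest mean. Single values were compared by exact permutation, and correlations with 100000 resamples (all orders within a day where 8 mice were used, each group permuted separately). The members and gene lists were chosen with earlier results of these data known. Genes named beside the members were the 4 called genes with the smallest p per list (2 at most in marker lists) and the 2 genes most like each member; all others named were chosen after their values were seen. Replicate numbers in the titles do not pair the mice. Each label describes a separate mouse, and the number of mice limits the precision. On simulated data for 8 mice per group over 31740 probes, each set of 50 changed probes gave 21 calls for a change of 0.5, 37 for 1, 48 for 2 and 39 for -1. There 6 unchanged probes were called, and 0 when nothing was changed. The simulated probes varied independently and few were changed, whereas 23.5% of all probes were called in the data. These counts therefore check the fit only and do not give the recovery or false calls of the real comparison. Promoters came from RefSeq (GRCm38.p6).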

Additional observations from a re-analysis of the deposited data

Results flagged for a closer look

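In 3 of the 28 sets of 8 values (14 probes in 2 groups), 1 KO chimera stood apart from the other 7 by more than Dixon's 95% limit for the gap over the range; chance gives about 1 such set in 20. For Sik1, KO chimera 4 had a level of -0.32, and the next lowest KO chimera 0.62 (gap over range 0.617). For the dimmer Fosl2 probe (A_51_P507242), KO chimera 3 had -4.24 and the next -3.02 (0.632). For the dim Crem probe A_55_P2177904, KO chimera 7 had -2.77 and the next highest -5.58 (0.656), and it was the 1 KO chimera array on which that probe was well above background. The 3 mice are different ones, and the cause was not tested.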

How the results depend on the processing

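Over all 32689 probes the count of 7696 calls fell to 2453 within scan day 1 and 3459 within scan day 2, where only 4 mice per group enter, and ran from 6604 to 7947 when 1 mouse was left out. Of the 11 tested probes, the 4 calls became 0 within day 1, 1 within day 2, 7 with array weights, which also called Sik1 and both tested Crem probes, and 2 with 1 probe per gene name, where 7 probes are tested; they stayed at 4 to 5 when 1 mouse was left out. The brighter Nr4a2 probe changed sign within day 1 (-0.058) and ran from -0.023 to 0.14 with 1 mouse left out, the low end without control 8. The dimmer Fosl2 probe changed sign within day 1 (-0.023) and ran from -0.036 to 0.24 (4 of 16 below 0), and the Crem probe A_51_P423976 was -0.0049 within day 1. The further CREB targets had 8 and 11 calls within the days against 17 (16 to 19 with 1 mouse left out), the CREB machinery 1 and 0 against 4 (3 to 5), and the correlations 0 and 7 against 2. With no filter on dim probes the median of all probes shifted from -0.01 to 0.09. With the replicate block 4 of the 11 probes were called among 7012 in all, and no member's call changed; same-numbered mice deviated together at r of -0.19 to 0.19, and 0 of 8 numbers were closest to their own. The causes were not tested. Dim probes, Nr4a3, 2 of Crem and Areg, are limited by signal over background.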
